A study of Mus musculus with 2 samples.

Results

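The elements described here are distal genomic regions that carry both a recognition site for AP-1 and one for STAT proteins, among the regions that changed reporter RNA in activated mouse T-helper 2 (Th2) cells. Members were chosen by position and sequence alone, without use of the fold. An element qualified when its midpoint lay more than 1000 bp from every annotated start of a protein-coding transcript and outside the exons of such transcripts, its GC content was below 60%, and less than 50% of its bases were soft-masked as repeats. It also had to hold an exact 7-base AP-1 site, the TPA response element (TRE) with C or G at its centre, and a STAT site of the inverted 3-base arms TTC and GAA with a spacer of 3 or 4 bases. Of 18431 elements in the authors' deposited table, 1545 met these conditions. They made up 8.39% of the 18414 elements on assembled chromosomes and 14.48% of the 10672 distal elements that passed the limits on position, GC and repeats.

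The series measured 1 condition by STARR-seq, an assay in which genomic fragments sit inside the transcribed part of a reporter plasmid, so that each fragment's RNA reports how strongly it drives its own transcription. Primary Th2 cells of C57BL/6NJ mice were transfected transiently, so the fragments were read from an episome and not from their place in a chromosome. The labels record a 3-day course of the stimulating antibodies anti-CD3e (0.25 ug/mL) and anti-CD28 (1 ug/mL), 4 days of anti-interferon-gamma (2 ug/mL), and the cytokines interleukin-2 (4 days) and interleukin-4. Age was recorded as unknown and sex as not collected. The 2 output libraries are labelled as biological replicates with the same donor record, fragments had a size range of 200 to 400, and there was no untreated or other cell state. The table pools both libraries, so no element has a spread between replicates, the depth behind an element is unknown, and tests compare elements with each other. It holds no gene expression, so the labelled cell type could not be checked against marker levels. The fold, p-value and q-value printed for any single element are those of the authors' table. The fold is read as log2 of RNA output over input, with base and reference not given in the sources used here.

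AP-1 is a family of dimers of FOS, JUN, BATF and related ATF proteins, which T-cell receptor and costimulatory signals induce and activate and which bind the TRE. STAT proteins are phosphorylated by JAK kinases at cytokine receptors, pair, enter the nucleus and bind inverted TTC and GAA arms. STAT5, downstream of interleukin-2, prefers the 3-base spacer, and STAT6, downstream of interleukin-4, also binds the 4-base spacer. Th2 cells in culture receive both kinds of signal.

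The arrangement of the sites differed widely from element to element. The following windows of the GRCm38 (mm10) reference span the nearest AP-1 and STAT pair of 7 members named by a fixed rule. They are shown so that the letters behind each fold can be read, with the sites in capitals.
Myo16 (chr8:10499820-10499893, plus strand): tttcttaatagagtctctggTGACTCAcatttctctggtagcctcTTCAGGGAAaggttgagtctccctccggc
Dgki (chr6:37370699-37370810, plus strand): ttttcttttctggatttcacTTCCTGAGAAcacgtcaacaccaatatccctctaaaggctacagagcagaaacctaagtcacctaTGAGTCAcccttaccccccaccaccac
Gfi1 (chr5:107735062-107735148, plus strand): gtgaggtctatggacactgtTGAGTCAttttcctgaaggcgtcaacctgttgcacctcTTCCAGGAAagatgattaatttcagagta
Fosl2 (chr5:32104191-32104256, plus strand): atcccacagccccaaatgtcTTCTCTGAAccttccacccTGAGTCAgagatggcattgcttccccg
Batf3 (chr1:191124232-191124350, plus strand): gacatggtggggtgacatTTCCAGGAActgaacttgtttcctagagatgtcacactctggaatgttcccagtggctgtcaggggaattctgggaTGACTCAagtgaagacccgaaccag
Cish (chr9:107312913-107313032, plus strand): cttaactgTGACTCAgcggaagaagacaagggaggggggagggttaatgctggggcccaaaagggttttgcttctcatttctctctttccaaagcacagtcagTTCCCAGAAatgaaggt
Ptpn6 (chr6:124683802-124683861, plus strand): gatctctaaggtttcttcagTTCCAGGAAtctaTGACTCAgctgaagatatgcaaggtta
Myo16 and Dgki are among the 8 positive members with the lowest q-values, and the other 5 lie near genes of Th2 identity, the AP-1 family and the feedback inhibitors of cytokine signalling. The pair was separated by 4 bases in the Ptpn6 window and by 88 bases in the Cish window. Another 5 windows were added after their values were seen, for 3 members near immune genes and 2 members with a negative fold.
Ifnar2 (chr16:91398216-91398334, plus strand): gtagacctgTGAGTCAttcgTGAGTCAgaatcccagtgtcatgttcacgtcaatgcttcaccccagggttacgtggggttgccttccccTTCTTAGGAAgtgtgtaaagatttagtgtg
Il7r (chr15:9569499-9569581, plus strand): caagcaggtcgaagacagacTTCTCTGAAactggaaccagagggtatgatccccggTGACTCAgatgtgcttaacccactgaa
Egr2 (chr10:67493704-67493764, plus strand): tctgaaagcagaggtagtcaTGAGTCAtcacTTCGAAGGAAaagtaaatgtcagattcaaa
Kctd12 (chr14:103012662-103012781, plus strand): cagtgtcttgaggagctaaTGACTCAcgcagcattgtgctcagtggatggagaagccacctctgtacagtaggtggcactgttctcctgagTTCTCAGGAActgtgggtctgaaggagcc
Alkbh3 (chr2:94051926-94052033, plus strand): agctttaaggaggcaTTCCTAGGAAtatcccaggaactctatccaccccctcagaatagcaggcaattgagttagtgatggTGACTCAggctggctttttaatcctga
The Ifnar2 window holds 2 TREs, separated by the letters ttcg. Kctd12 and Alkbh3 show that elements with exact copies of both sites also occurred on the negative side.

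Nearly all members had a positive fold. Of the 1545, 1483 were positive and 62 negative, a share of 95.99% positive (exact 95% binomial interval 94.88 to 96.91), where 71.5% of all elements in the table were positive. Among distal elements the share was 93.53% with an AP-1 site alone (n = 2642), 92.51% with a STAT site alone (n = 2110) and 87.57% with neither (n = 4375). Intervals cover counting error only. In a logistic model with width, GC content and CpG ratio as covariates, the odds of a positive fold were 1.602 times those of AP-1 alone (95% interval 1.18 to 2.175, adjusted p = 0.00409, n = 10672 elements). They were 1.87 times those of STAT alone (1.39 to 2.51, adjusted p = 0.000103, n = 10672) and 3.12 times those of elements with neither site (2.39 to 4.09, adjusted p = 8.68e-16). These are Wald tests with errors clustered on 1 Mb bins and Benjamini-Hochberg adjustment over 8 contrasts. The product term of the 2 sites had an odds ratio of 0.957 (0.671 to 1.37, adjusted p = 0.807, n = 10672), which did not pass the threshold. With sites counted only in the central 200 bp this term was called, at a log odds of -0.652 against -0.0441 (adjusted p = 0.0469, n = 10672). The contrast with AP-1 alone lost its call among distal elements with a q-value below 0.001 (log odds 0.476 against 0.471, adjusted p = 0.28, n = 6452) and in that central window (0.384, adjusted p = 0.175, n = 10672). That with STAT alone was also lost in the central window (0.283, adjusted p = 0.29, n = 10672). With only the full palindrome counted as a STAT site both were lost, at 1.64 (adjusted p = 0.085, n = 10672) and 1.22 (adjusted p = 0.23).

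Members were wider than the other distal elements, with a median of 550 bp against 450 bp for AP-1 alone, 500 bp for STAT alone and 350 bp for neither, and a wider element holds more letters in which to find a site. The order of the classes therefore has to be read by width. Among elements of 400 to 500 bp, 98.51% of 335 members were positive, against 93.06% with AP-1 alone and 93.02% with STAT alone. From 525 to 625 bp the shares were 94.23%, 89.03% and 90.32%. At 50 to 250 bp members (98.23%, n = 113) and elements with AP-1 alone (98.34%) had overlapping intervals, while 87.48% of the elements with neither site were positive.

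**Figure D1:**
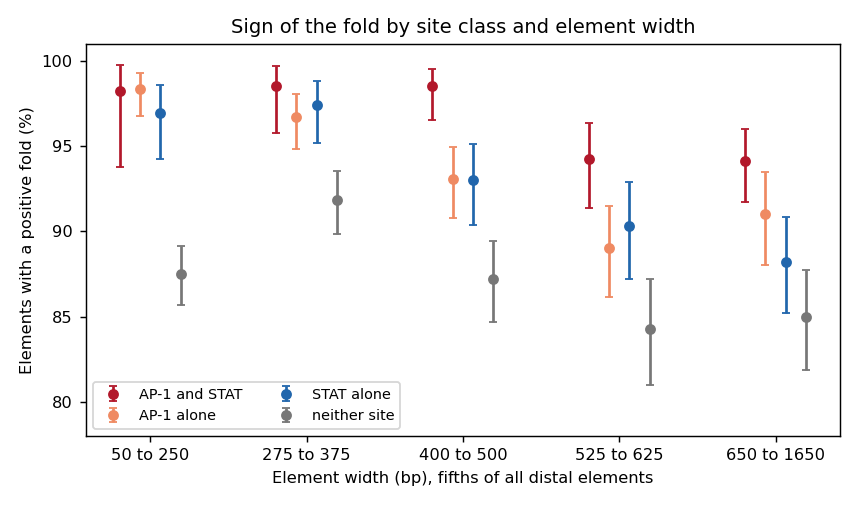
Share of elements with a positive fold (vertical axis, percent, from 78) by width in bp (horizontal axis, 5 classes of all distal elements) for the 4 site classes. Points are shares and bars are exact 95% binomial intervals, some of which overlap. Members are highest from 275 bp upwards, and elements with neither site are lowest in every width class.

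The size of the positive folds separated the classes far less than their sign. The median log2 fold of positive members was 1.164 (95% interval 1.138 to 1.205, quartiles 0.884 and 1.63), or 2.24-fold. It was 1.106 with AP-1 alone, 1.206 with STAT alone and 1.242 with neither site. A log2 fold of at least 2 was reached by 206 members, or 13.33%, where 13.5% of all elements reached it, a share near that of the table. A q-value below 0.001 was given to 1050 members (67.96%), against 60.7% of all elements. In a linear model with the same covariates, positive members were higher than AP-1 alone by 0.07 on the log2 scale (0.02 to 0.11, adjusted p = 0.0097, n = 9737 positive elements). They were lower than STAT alone, with a difference of -0.053 (-0.104 to -0.0018, adjusted p = 0.0486, n = 9737), and than neither site, with -0.108 (-0.157 to -0.0589, adjusted p = 6.72e-05). The product term was 0.12 (0.05 to 0.19, adjusted p = 0.000819, n = 9737), so the fold of elements with both sites was higher than the sum of the 2 separate differences. Sites were counted per element, and the median member width of 550 bp exceeded the labelled fragment size range. The nearest pair in a member was up to 1146 bases apart, so both sites need not have sat on the same reporter fragment. Whether they did was not tested. All elements had passed a q-value of 0.01, and the smallest folds are thus missing from every class. Of 15 alternatives, 9 ended the call against STAT alone, 5 that against AP-1 alone and 3 that against neither, with some settings ending more than 1.

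**Figure D2:**
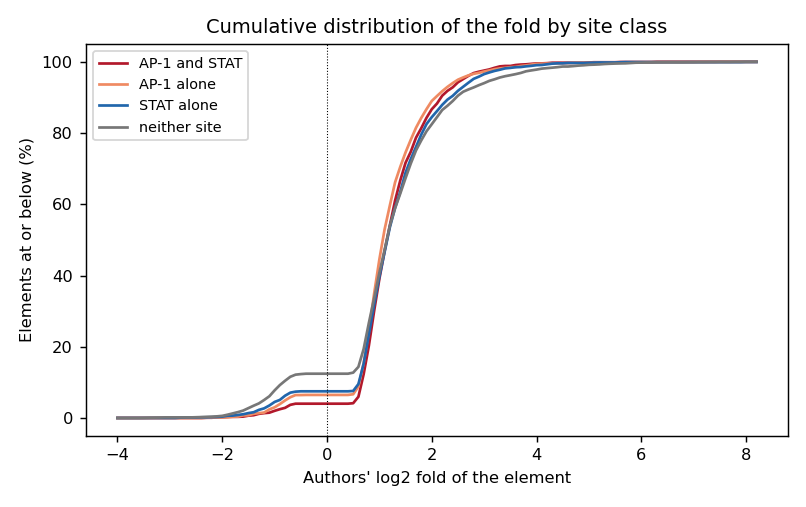
Cumulative share of elements (vertical axis, percent) at or below each log2 fold (horizontal axis, log2 units) for the 4 classes of distal elements, with a dotted line at 0. At 0 the curves of both sites and of neither stand at 4.01% and 12.43%, and at 2 they stand at 86.67% and 82.47%.

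Both kinds of site gathered at the centres of the members. The TRE was present at 4.21 and 4.33 sites per kb in the 50 bp on either side of the centre and at 1.03 per kb 350 to 400 bp away. STAT sites reached 3.67 and 3.44 per kb at the centre and 1.40 and 1.69 per kb at that distance. The most central TRE of an element lay within 50 bp of the centre in 39.42% of members and the most central STAT site in 33.33%. Regions of the same width 5 kb to either side, overlapping no element, gave the comparison. They held a TRE in 8.29% of 15640 cases, against 39.23% of distal elements, a STAT site in 24.48% against 34.25%, and both in 2.29% (358 regions) against 14.48%. In the flanking regions with both sites the most central TRE lay within 50 bp of the centre in 17.04% and the most central STAT site in 25.42%. TREs of these flanks had no peak at the centre. They stood at 1.68 and 1.79 per kb beside it and at 2 and 2.29 per kb 100 to 150 bp away. At 350 to 400 bp they stood at 1.04 and 1.25 per kb. STAT sites of the flanks went from 2.29 and 2.85 per kb beside the centre to 1.67 and 1.25 per kb at 350 to 400 bp. The sites lay closer together in members, with a median of 68 bases between them against 134 in those flanks (median widths 550 and 625 bp). Of the pairs, 11.39% against 6.15% were within 10 bases. The letters of the 2 sites do not allow them to overlap, and in 10 members they abutted. These are descriptions over elements, with no test.

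**Figure D3:**
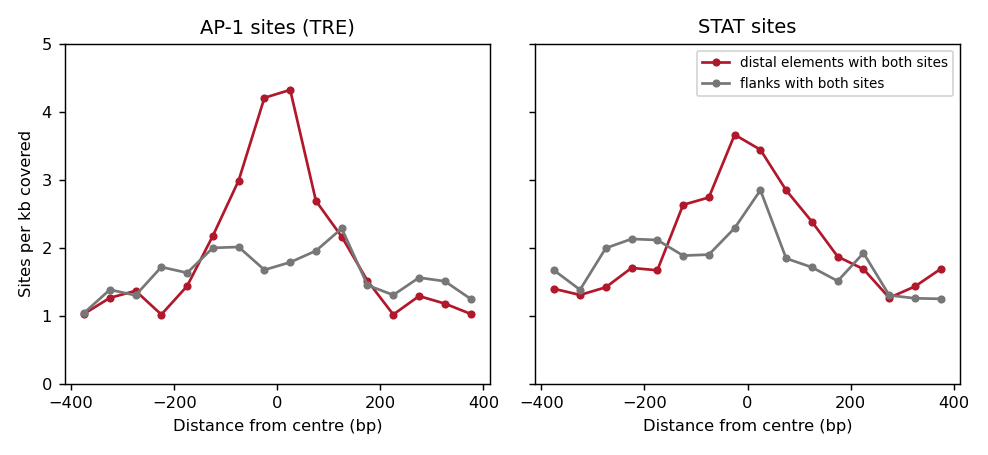
Sites per kb of sequence covered (vertical axis) by distance from the centre in bp (horizontal axis, bins of 50 bp), for TREs on the left and STAT sites on the right, in the 1545 members and in the 358 flanks that hold both sites. Member TREs peak at 4.33 per kb beside the centre, where flanks have 1.68 and 1.79, and member STAT sites at 3.67, where flanks have 2.29 and 2.85.

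Co-occurrence of the 2 sites followed width. A STAT site was present in 36.9% of distal elements with a TRE and in 32.54% of those without. In elements of 400 to 500 bp the shares were 35.08% and 37.49%, in those of 525 to 625 bp 40.27% and 43.96%, and in those of 650 bp and more 52.74% and 47.18%. The direction thus changed between width classes.

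No one form of either site was dominant, and the counts of forms were not set against other sequence. Of 1932 TREs with a readable base on each side, 223 read ATGACTCAG on one strand or the other and 177 read GTGACTCAC. Among 1249 STAT sites with the 3-base spacer, TTCTCAGAA (181) and TTCCAGGAA (163) were the most frequent. The latter is an instance of the full palindrome TTCCNGGAA, which made up 14.09% of these sites. The 4-base spacer gave 747 sites spread over 99 forms, led by TTCAGAAGAA with 26.

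Among positive members no difference in the size of the fold by the kind or layout of the sites was detected. Members with the 3-base spacer alone (865) were positive in 96.76% and had a median log2 fold of 1.159, and those with the 4-base spacer alone (495) in 94.14% with 1.158. The 185 with both spacers were positive in 97.3% with 1.226. Of all members 1220 held 1 TRE, 266 held 2 and 59 at least 3, with medians of 1.163, 1.193 and 1.043. A full STAT palindrome was found in 174 members, of which 172 were positive (median 1.205). The median fell from 1.246 where the pair lay within 10 bases (176 members) through 1.22 at 11 to 50 bases and 1.154 at 51 to 150 bases to 1.073 beyond 150 bases, and the median width of the last class was 650 bp against 525 bp of the first. With width, GC and CpG ratio as covariates none of the 7 layout terms passed Benjamini-Hochberg adjustment (Wald tests, adjusted p from 0.447 to 0.763, n = 1483). Per doubling of the distance between the sites the log2 difference was 0.0031 (-0.017 to 0.0232), per additional STAT site 0.08 (-0.01 to 0.16), per additional TRE 0.02 (-0.05 to 0.09) and for the 4-base against the 3-base spacer 0.03 (-0.06 to 0.12). These terms concern the size of positive folds, and the sign was not tested by layout. The share positive was 98.86% within 10 bases, 95.53% at 11 to 50, 96.93% at 51 to 150 and 94.01% beyond 150 bases. Without a full palindrome it was 95.62%, against 98.85% with one. Distance was taken within the element, and whether both sites of a pair lay on the same reporter fragment was not tested.

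**Figure D4:**
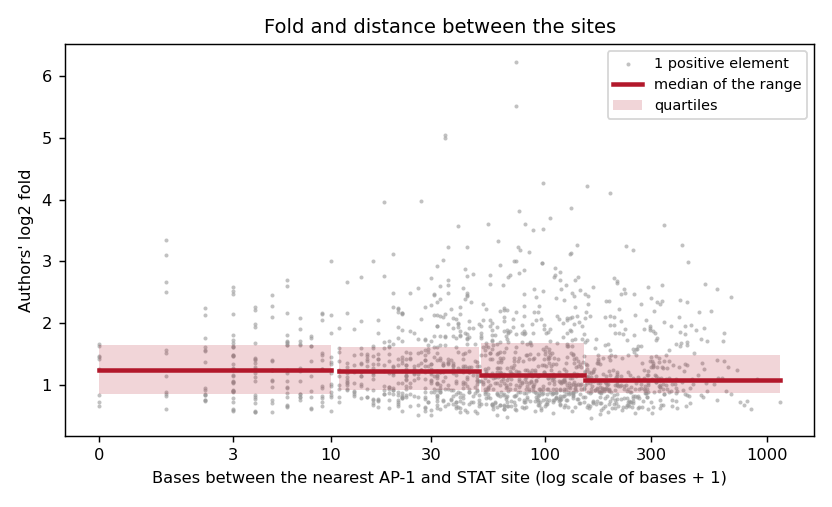
Log2 fold of each positive member (vertical axis) against the number of bases between its nearest TRE and STAT site (horizontal axis, log scale of bases + 1), with the median (line) and quartiles (band) of 4 distance ranges. Medians run from 1.246 within 10 bases to 1.073 beyond 150 bases, and the bands overlap throughout.

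The positive members with the lowest q-values lay from 6403 bp (Rnf157) to 407847 bp (Sorcs1) from the nearest start, where the median of all members was 28110 bp. The strongest by q-value was an element in an intron of Rnf157, which encodes a RING finger ubiquitin ligase (chromosome 11, 116406201 to 116407000), with a log2 fold of 4.111, 17.3-fold, and a q-value of 1.67e-12. Its 2 TREs and its STAT site with 4-base spacer were 196 bases apart at the nearest pair. The element of the Myo16 window (chromosome 8, 10499751 to 10500625), in an intron of a gene for an unconventional myosin, had 3.96 and lay 227616 bp from the start. The Sorcs1 element had 3.14, and that named for Dgki, in an intron of Creb3l2, had 3.61. Prkci had 3.27 and Oit1 3.19. Gvin1 had 3.59, and this element has 1 near-identical match elsewhere in the genome. Genes are named here as the nearest starts. Elements of the gene lists below are named for a listed gene within 50 kb, which need not be the nearest start. Nearer starts were those of Lpcat3 for Ptpn6, Ccr2 for Ccr3 and Tbkbp1 for Tbx21. Neither way of naming says which gene an element acts on.

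The 4 largest folds all belonged to members with a near-identical match that is itself a member. Near Gm32717 (chromosome 10, 118230226 to 118230450), which lies 25396 bp from the start of the cytokine gene Il22, the log2 fold was 6.24, and near Gm32802 it was 5.52. Those sequences were 99.56% identical. Raet1e and Raet1d, genes for stress ligands of the NKG2D receptor, had 5.05 and 4.997 at 99.6% identity. In all, 37 members had a match of at least 90% identity over at least 80% of the element. Their median log2 fold was 2.24, against 1.15 in the 1508 members without. All 37 were positive, a count close to the 95.89% of those without. The counting of reads shared between such copies was not stated in the sources used here, so the folds of these members are uncertain. Pairs of members could also differ, as near Klrc3 (2.64) and Klrc2 (2.04), at 98.67% identity, and near Olfr1507 (1.21) and Dad1 (3.82), at 96.2%. Among members with no such match the largest fold, named after its values were seen, was 4.23 near Fpr2, a formyl peptide receptor gene, followed by Rnf157 and by an element 47781 bp from Dnaja2 at 3.97.

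The negative members had smaller folds and higher q-values than the positive ones. Their median log2 fold was -0.985, their median width 625 bp, and 9 of the 62 had a q-value below 0.001. Smaller folds were not particular to members. All negative distal elements had a median of -1.064 (width 500 bp), against 1.184 for the positive ones. With AP-1 alone the medians were -0.976 (width 550 bp) and 1.106. The share of negative elements at large below that q-value was not taken. Among negative members the lowest q-values were found near Ndfip2, an adaptor of ubiquitin ligases (-1.56, q = 0.000163), Kctd12 (-1.39), Alkbh3 (-1.17, in an intron of Hsd17b12) and Eif2b2 (-1.59). The lowest fold of all members, named after its values were seen, was -2.31 in an intron of Jak1 (chromosome 4, 101182651 to 101183175), the kinase shared by many cytokine receptors, in an element whose nearest TRE and STAT site were 1 base apart. A further member 13456 bp from the start of Hrh1, the histamine receptor H1 gene, had -2.13.

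Members lay near a larger share of the listed cytokine receptor and T-cell genes than of genes at large. Of all 21829 protein-coding genes, 1631 (7.47%) had a member within 50 kb of a start, and 40.61% had any distal element. Cytokine receptors had one in 11 of 25 genes, Th2 identity genes in 10 of 23, regulatory T-cell genes in 6 of 14, Th17 genes in 4 of 11, T-cell activation genes in 10 of 30 and interleukin-2 and STAT5 targets in 8 of 24. Th1 identity genes had one in 2 of 12. B-cell (1 of 14), neuronal (0 of 14), liver (1 of 14) and muscle genes (2 of 14) were closer to the level of all genes. Distal elements of any kind lay near 21 of the 23 Th2 genes and 14 of the 25 receptor genes, against 2 of 14 B-cell and 5 of 14 neuronal genes, so gene lists differed in their supply of elements too. Lists overlap, neighbouring genes share elements, and no test was made over lists.

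**Figure D5:**
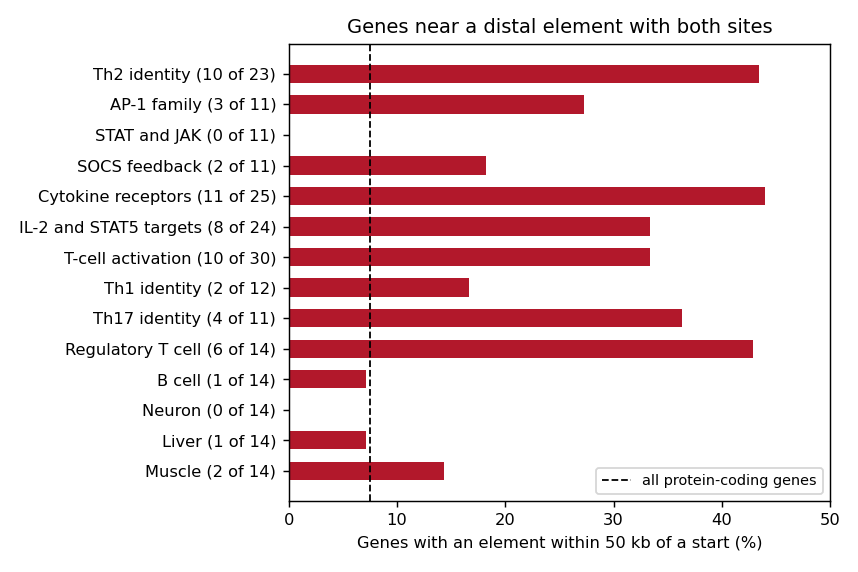
Share of genes in each list with a member within 50 kb of an annotated start (horizontal axis, percent), with counts beside the list names and a dashed line at 7.47%, the share of all protein-coding genes. Cytokine receptors (44%) and Th2 identity genes (43.48%) have the longest bars, and STAT and JAK genes and neuronal genes have none.

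Near the receptors, which capture the cytokines that activate STAT proteins, 15 of 17 members were positive, with a median log2 fold of 1.469. Of the 1022 members near any protein-coding gene 980 were positive, with a median of 1.148. Il7r, the interleukin-7 receptor alpha chain, had the most members of any gene within 50 kb. All 5 were positive, at 0.79 in its intron and at 1.96, 0.96, 2.07 and 1.54 upstream of it, and the latter 4 formed the longest run of members on a chromosome, from 9555751 to 9570650 on chromosome 15. An element in an intron of Il4ra, the chain that binds interleukin-4 (chromosome 7, 125554301 to 125554975), had 2.62 and lay 2362 bp from the start. The element in an intron of Ifnar2, the type I interferon receptor chain, had 2.94 and also lay within 50 kb of Il10rb. Il2rb had 1.63, at an element in an intron of Tmprss6, and Ifngr2 1.03, at an element in an intron of Tmem50b. Csf2rb, the shared beta chain of the IL-3, IL-5 and GM-CSF receptors, had 3 positive members, 2 of which have a near-identical match. Both negative members, near Il6st (-0.789) and near Il10ra (-0.911), had a positive member within 50 kb of the same gene, at 0.94 and 0.83.

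The 12 members near Th2 identity genes had a median log2 fold of 1.43. All were positive, a count close to the 95.99% of all members. Gfi1, a transcriptional repressor that supports Th2 cell growth, had 2.47, Ccr3, an eotaxin receptor gene, 1.96, and Il10 1.915 and 1.56 at 2 elements. Il6 had 1.84, Il24 1.30, Gata3, the master transcription factor of Th2 cells, 1.11 in its intron, and Il1rl1, the interleukin-33 receptor, 1.03. The q-value of the Gata3 element was 0.0096, close to the limit of 0.01. The lowest were Nfil3 at 0.68 (q = 0.0092) and Tnfrsf8 at 0.52 and 0.80. No member lay within 50 kb of Il4, Il5 or Il13.

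Few genes of the AP-1 family, of STAT and JAK proteins and of feedback inhibitors had a member nearby. Of 11 AP-1 family genes 3 had a member, with 3.13 and 2.2 near Atf3, 1.01 near Fosl2 and 0.72 near Batf3, a BATF paralogue. None of the 11 STAT and JAK genes had one within 50 kb of a start, where 7.47% of all protein-coding genes did. The list is too short to set 0 apart from that share. Some distal element lay there for 10 of the 11, and 2 had a member within 100 kb, where 13.93% of all genes did. The member with -2.31 in an intron of Jak1 lay 82360 bp from its start. Of 11 feedback inhibitor genes Cish, a suppressor of cytokine receptor signalling induced by STAT5, had 3.52 (11.4-fold). Ptpn6, which encodes the phosphatase SHP-1, had 0.77, at an element in an intron of Lpcat3. Further members near activation genes included Tnfrsf4, the costimulatory receptor OX40 (2.48, in an intron of Sdf4 and also near Tnfrsf18), Egr2, a zinc finger factor induced by the T-cell receptor (2.26), Fasl (1.39), Icos (0.74) and Ctla4 (0.72). Among lists of other lineages were Il17a (2.03), Nrp1 (1.18), Tbx21 (0.68, in an intron of Tbkbp1), the muscle regulator Myog (1.88) and Mb, the myoglobin gene (2.42 and 0.53).

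Members also carried sites that the rule did not use. Of 13 further consensus sites searched on both strands, 3 contain a TRE, so that the rule itself raised their frequency. Of the other 10, 6 were more frequent in members than in the other distal elements, and 4 were when only the central 200 bp counted, members being the wider. GATA sites (GATA after A or T and before A or G) occurred in 62.46% of members against 49.79%, NFAT sites (GGAAAA) in 40.26% against 29.72% and RUNX sites (TGTGGT) in 45.05% against 37.46%. In the central 200 bp these were 31.07% against 27.69%, 16.63% against 15.35% and 21.17% against 21.43%, where the last is lower. Elements with AP-1 alone had 27.82%, 13.93% and 18.81% there. Those with STAT alone had 29.67%, 18.39% and 25.45%, so central NFAT and RUNX sites were more frequent in them than in members. Interferon-stimulated response elements (GAAANNGAAA) were in 14.82% against 15.09% and SP/KLF sites (GGGCGG) in 8.22% against 9.71%, where 33.22% of all elements had the latter. The AP-1 and IRF composite element without a gap, which contains a TRE, was present in 5.18% of members and 3.63% of elements with AP-1 alone, and the form with a 4-base gap in 2.14% and 2.84%. A full CRE palindrome (TGACGTCA) occurred in 27 members, all positive where 95.99% of members were, with a median log2 fold of 1.58 against 1.16 in members without.

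Members were spread over 20 chromosomes, from 31 on X to 131 on chromosome 2. Gene bodies held 724 of them (46.86%), of which 95.72% were positive, against 96.22% of those outside. Within 10 kb of a start 96.88% of 321 members were positive (median 1.137), from 10 to 100 kb 95.2% of 937 (1.154), and beyond 100 kb 97.56% of 287 (1.233). Runs were few. With a limit of 10000 bp between midpoints, set after the data were seen, 48 members (3.11%) lay near another in 23 groups, and 3 of the groups held both signs. Outside the limits of the rule, elements with both sites behaved differently by place. At promoters 63.12% of 160 were positive, and of 9 distal elements with GC of 60% or more 1 was, while 97.5% of 40 exonic and 98.78% of 82 repeat-rich distal elements were positive. At the limits themselves, the member closest to a start, near Tns1, lay 1016 bp away and had -1.47, and the nearest excluded one, near Tnfrsf9, lay 938.5 bp away and had 2.81. The highest GC of a member was 59.62% (near Adap1, 1.59) and the lowest above the limit 60.55% (near Exoc7, -1.105). For repeats these were 49.92% (near Sptssa, 0.83) and 50.55% (near Rnf157, 2.15).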

How the data were processed

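STARR-seq RNA from 2 libraries of activated Th2 cells was quantified by the authors in 1 deposited element table on mm10 without a header. The authors made the signed log2 fold of each element from the alignments of both libraries together, per the deposited lists of files, with base, reference, aligner, caller and test not given in the sources used here. Both the deposited p-value and q-value columns are linear, and every q-value was below 0.01. Starts count from 1. No read counts are held, so depth and per-element error are unknown.

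Elements on 19 autosomes, X and Y were annotated with GRCm38.p6 and GENCODE M21, and the 17 on scaffolds were set aside. Sites were searched as exact letters on both strands. Sign was fitted by logistic and log2 fold of positive elements by linear regression on 4 site classes, with log2 width, GC percent and CpG ratio as covariates and errors clustered on 1 Mb bins (statsmodels 0.14.6). Neighbouring elements are not independent. Both fits were tested on simulated data. Near-identical matches came from minimap2 2.31. Python 3.11.15 was used.

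Named members were the 8 positive and 4 negative with the lowest q-values, the 4 with the largest folds, and up to 3 genes per list by lowest q-value within 50 kb. Windows of at most 120 bases were printed for the positive members of the first rule and for Th2, AP-1, STAT and feedback genes, where the pair could be placed in one, outside chromosome 18 and without near-identical matches. 1 member of the first rule is not reported here. Others are named as chosen after their values were seen. The members and the 14 gene lists were chosen with earlier results of these data known. Alternatives on position, repeats, thresholds, sites, copies and covariates are given in the closing section.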

Additional observations from a re-analysis of the deposited data

How the results depend on the processing

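No paired analysis was possible because the table pools both libraries and has no value per library, and leaving out a replicate could not be run for the same reason. Values below are log odds for sign and log2 differences for size, and over all alternatives the tested results kept direction and side of the threshold in 170 cases, lost a call in 23, turned direction in 10 and gained a call in 1. Values with no test stayed close in 37 cases and moved in 22. The sign against neither site was called under all 15 (0.923 to 2.29). The causes of the changes were not tested, and the stricter limits also left fewer elements. Size against STAT alone lost its call with promoters of 2000 bp (-0.051), any exon overlap left out (-0.0505), near-identical matches left out (-0.0363), width and GC in classes (-0.0479) and ISRE, CRE and NF-kB sites as covariates (-0.0479). Size against AP-1 alone lost it with absolute log2 folds of 1 or more (0.0399) and without covariates (0.0391). Under 10% soft-masked, 758 members were left (96.97% positive), size lost its calls against AP-1 alone (0.0537), STAT alone (-0.0194) and neither (-0.0842), and the sign interaction turned to 0.113. At a q-value below 0.001, 99.14% were positive with a median of 1.347, and calls were lost for sign against AP-1 alone (0.476) and size against AP-1 alone (0.0508) and STAT alone (-0.0684), with a sign interaction of 0.0083. Absolute log2 folds of 1 or more left 973 members with a median of 1.452. With sites in the central 200 bp there were 603 members (median 1.215), sign lost its calls against AP-1 alone (0.384) and STAT alone (0.283), its interaction was called at -0.652 (adjusted p = 0.0469, n = 10672), and size was lost against STAT alone (-0.0386) and neither (-0.0676). The full palindrome as STAT site left 174 members (98.85% positive, median 1.205), with sign at 1.64 and 1.22 against AP-1 and STAT alone, an interaction of 0.569, and sizes of 0.0849, -0.0405 and -0.0486 against AP-1 alone, STAT alone and neither and 0.0929 for the product term, none called. Layout terms were not called under any of the 12 alternatives run for them, which leave out the central window, the full palindrome and the fit over the whole table. Without near-identical matches those for distance (-0.00105), spacer (-0.0221) and STAT position (-0.00212) turned sign, and without covariates those for distance (-0.000372), TRE number (-0.00466), TRE position (-0.00351) and STAT position (-0.024). Genes with a member within 20 kb numbered 1 for the AP-1 family, 1 for feedback inhibitors, 7 for cytokine receptors, 3 for T-cell activation, 1 for Th1, 1 for Th17 and 0 for liver, and within 100 kb 2 for STAT and JAK, 6 for Th1, 2 for neuron and 2 for liver. Unknown depth limits every single element.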
